A study of Mus musculus with 6 samples.

Results

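The potassium channel genes of the mouse were followed in 6 RNA libraries through every file deposited for them. They were taken by symbol, as all genes named Kcn followed by letters and a number, and comprised 89 of the 32343 genes listed, 103 of the 11895 circular RNAs (circRNAs, rings closed by a splice that runs backwards, from the end of an exon to the start of the same or an earlier one) and 343 of the 77172 pairs of alternative splice forms. The DHT group held 3 libraries from 14-month-old male C57BL/6 mice injected under the skin every day for 14 days with dihydrotestosterone, a potent androgen, and the oil group held 3 libraries from mice of the same strain, sex and age injected with corn oil, the vehicle. The labels name the tissue as hippocampus, call the mice sampled representative, and also use the word testosterone for the DHT group. They do not say whether a library is 1 animal or a pool, so the p-values below measure the spread among the 6 libraries alone, and part of it may be technical.

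Potassium channels let potassium leave the cell and so set the resting potential, end the action potential and limit repetitive firing. In voltage-gated channels 4 subunits form one pore, and the families differ in when they open: Kv1 channels near the spike threshold on axons, Kv3 channels at strong depolarization in fast-spiking cells, Kv4 channels transiently in dendrites, and Kv7 channels slowly, as the M current. Calcium- and sodium-activated channels open as these ions enter, inward rectifiers and tandem-pore (K2P) channels work near rest, and inward rectifiers also serve glia and G-protein signalling.

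The libraries held 43512 to 55325 junction reads in the DHT group and 43573 to 48212 in the oil group, from 143.3 to 177.3 and 154.2 to 158.7 M mapped reads (M, mega). The tissue label was set against markers. Of 9 striatal genes 8 had a mean over 5 FPKM, with Drd1 at 0 in all 6 libraries, and their sum was 185 to 349 FPKM under DHT, against 266 to 297 FPKM under oil. Of 8 hippocampal genes 2 (Wfs1 and Zbtb20) had a mean over 5 FPKM, Neurod6 was listed at 0 in 5 libraries, and the sum was 13.4 to 34.8 FPKM under DHT, against 15.4 to 31.1 FPKM under oil. The striatal sum was thus above the hippocampal sum in all 6 libraries, so the markers go against the tissue label, which is kept here only as a label. The choroid plexus gene Ttr had 0.131, 0.385 and 29.2 FPKM under DHT, against 76.4, 12.4 and 1.78 FPKM under oil, so it differed between libraries of both groups. In such bulk RNA, fewer cells of a type and less RNA per cell cannot be told apart.

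Promoter sequences are shown first, because androgen acts through a DNA-binding receptor and because many first-exon events of these genes began at annotated starts. The sequences are RefSeq's, build GRCm38.p6, as the 250 bases before the start. Among 37 potassium channel genes with a leading first exon of at least 0.5 FPKM and a RefSeq promoter, that exon began within 100 bases of an annotated start in 19 (51.4%). Those of 3 genes are printed: Kcnc1, which had the smallest p among members higher in DHT libraries, Kcnk13, which had it among those lower, and Kcnj6, the host of the circle with the most junction reads. Capitals mark matches, on either strand, to the GC box (GGGCGG) or to the androgen receptor half-site (TGTTCT). The full androgen response element searched, 2 half-sites facing each other with 3 bases between them, contains the half-site.
Kcnc1 promoter (chr7:46396218-46396467, plus strand): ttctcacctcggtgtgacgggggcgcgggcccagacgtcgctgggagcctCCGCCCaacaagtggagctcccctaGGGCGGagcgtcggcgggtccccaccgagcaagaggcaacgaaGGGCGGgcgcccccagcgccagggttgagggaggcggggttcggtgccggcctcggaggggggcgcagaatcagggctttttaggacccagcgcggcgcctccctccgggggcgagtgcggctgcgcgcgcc
Kcnk13 promoter (chr12:99964249-99964498, plus strand): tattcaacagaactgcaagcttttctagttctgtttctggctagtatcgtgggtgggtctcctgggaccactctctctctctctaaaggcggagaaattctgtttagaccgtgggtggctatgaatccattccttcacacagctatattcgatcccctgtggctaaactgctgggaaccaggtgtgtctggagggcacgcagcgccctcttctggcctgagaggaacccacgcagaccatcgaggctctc
Kcnj6 promoter (chr16:94997697-94997946, minus strand): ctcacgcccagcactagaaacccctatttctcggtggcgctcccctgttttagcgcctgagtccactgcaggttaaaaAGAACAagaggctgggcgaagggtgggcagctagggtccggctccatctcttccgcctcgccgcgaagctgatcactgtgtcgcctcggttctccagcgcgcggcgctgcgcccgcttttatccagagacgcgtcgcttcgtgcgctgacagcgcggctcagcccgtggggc
The Kcnc1 window held 3 GC boxes, 30 CpG dinucleotides and 74.4% GC, and its leading first exon began 29 bases inside the annotated start. The Kcnk13 window held none of these motifs, with 8 CpG dinucleotides and 52.8% GC. Its leading first exon began 26 bases inside the annotated start and held only 59.5% of the gene's first-exon FPKM. That exon alone had 0.656, 0.559 and 0.611 FPKM under DHT, against 0.618, 0.823 and 0.314 FPKM under oil, with overlap. The window therefore does not stand for the lower value of the whole gene. The Kcnj6 window held 1 half-site, read on the opposite strand as AGAACA, and no GC box. Over all 92 promoters of 67 potassium channel genes, 14.1% held the half-site against 16.1% of the 32851 promoters in the table. The GC box was in 44.6% against 32.7%, the full androgen response element in 0% against 0.01%, and the cAMP response element (TGACGTCA) in 0% against 1.55%. Median GC content was 58.6% against 52.4%. These letters describe the windows only, and an absent match says nothing of the receptor.

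Of the 89 genes, 61 were above 0 in all 6 libraries, 14 in 1 to 5 libraries, and 14 were listed at 0 in every library and every event. A gene value here is the larger of the summed first-exon and summed last-exon FPKM (fragments scaled to transcript length and sequencing depth) in a library. The mean value was at least 10 FPKM in 17 genes, from 2 to 10 FPKM in 28, from 0.5 to 2 FPKM in 13, and under 0.5 FPKM in 31. The whole family summed to 524, 509 and 441 FPKM under DHT, against 460, 433 and 456 FPKM under oil, which was 0.514% and 0.511% of all gene values. The ranges of sums overlapped, since the lowest DHT library stood below 2 oil libraries. The levels were steady between libraries of a group, with a median coefficient of variation of 15.6% over the 58 genes tested against 16.2% over all genes tested.

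**Figure D1:**
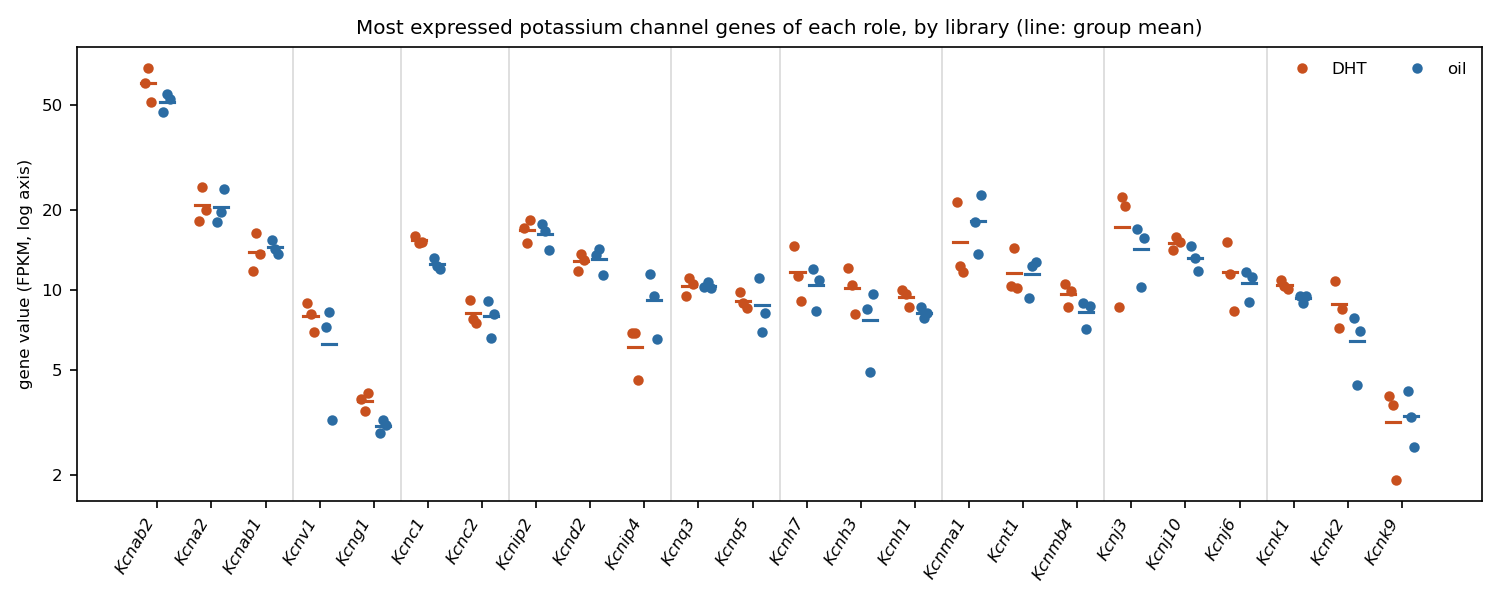
Gene values in FPKM on a log axis for up to 3 of the most expressed potassium channel genes of each role, with each library as a point and the group mean as a line, DHT left of oil. Kcnab2 lies highest, and the groups overlap for all but Kcnc1, Kcng1 and Kcnk1.

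No potassium channel gene passed the test between DHT and oil. Of the 58 genes that averaged 0.5 FPKM or more, 0 had an adjusted p under 0.05 (limma, Benjamini-Hochberg over 11369 genes), where 0.0176% of all genes did. At an unadjusted p under 0.05 there were 2, Kcnc1 and Kcng1, both higher, where 7.34% of all genes were (5.79% higher and 1.55% lower). That count was 5 without DHT library 2, 6 without DHT library 3, and 1 without each oil library in turn. The value was higher in DHT libraries in 44 of the 58 (75.9%) and lower in 14, where 63.6% of all genes tested were higher. With each library centred on its median gene, 36 of 58 (62.1%) were higher against 51.4% of all genes. The median log2 fold change, DHT over oil, was 0.15 for the potassium channel genes and 0.07 for all genes, or 0.09 and 0.01 after centring. The 3 DHT libraries did not overlap the 3 oil libraries in 8 genes, 7 higher and 1 lower, where 15.1% of all genes did not overlap (12% higher and 3.15% lower).

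**Figure D2:**
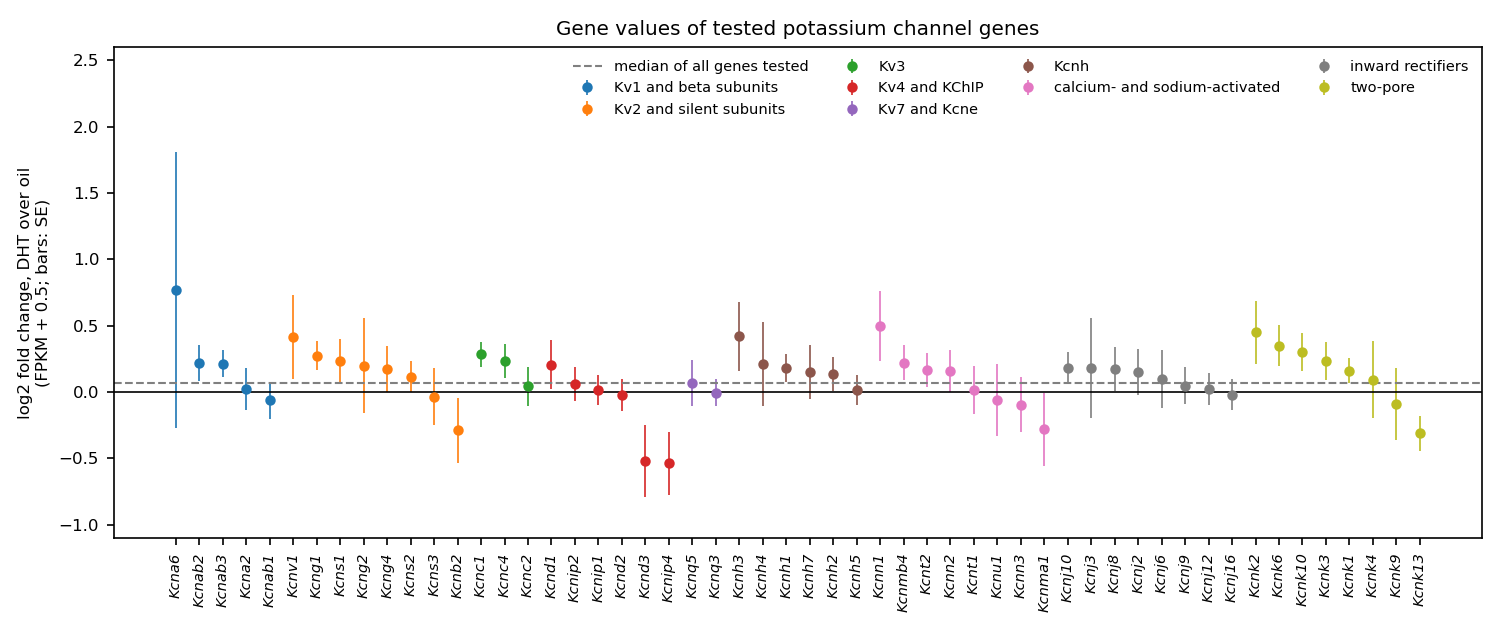
Log2 fold change in gene value, DHT over oil, with its standard error for 54 of the 58 tested potassium channel genes, ordered within roles. The dashed line is the median of all 11369 genes tested (0.07); the 3 Kv3 and 6 Kcnh genes plotted all lie above 0 (2 and 5 of them after centring), while Kcnd3, Kcnip4 and Kcnk13 lie below it.

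Among the Kv3 genes all 4 tested had higher values in DHT libraries, and 3 of 4 after centring, with none passing the adjusted test. Kcnc1 encodes the Kv3 pore subunit best known from fast-spiking interneurons. It had 16.0, 15.0 and 15.2 FPKM under DHT, against 13.3, 12.3 and 12.03 FPKM under oil. The groups were fully apart, but the step was small: the means were 15.4 ± 0.495 and 12.5 ± 0.641 FPKM (DHT and oil, SD, n = 3 each), with a log2 fold change of 0.29 (SE 0.09, unadjusted p = 0.0188 and adjusted p = 0.656 by limma). Its last-exon events alone were at 14.2, 6.74 and 5.99 FPKM under DHT, against 5.19, 3.66 and 3.53 FPKM under oil, without overlap. Both sums come from the same libraries, and in some genes, such as Kcnh5, they were identical. The last-exon sum is therefore no independent check of the gene value. Kcnc4 had 8.21, 6.41 and 7.94 FPKM under DHT, against 6.04, 6.06 and 6.77 FPKM under oil, and the groups overlapped. Kcnc2 averaged 8.16 ± 0.876 FPKM under DHT, against 7.95 ± 1.29 FPKM under oil (SD, n = 3 each). Summed interneuron markers stood at 117 to 133 FPKM under DHT, against 118 to 134 FPKM under oil. That sum is mostly Gad1 and Gad2, whose log2 fold changes were -0.08 and -0.24, while Pvalb, Sst and Vip had 0.16, 0.34 and 0.11. Pvalb had 12.2, 7.82 and 10.5 FPKM under DHT, against 10.1, 7.15 and 9.70 FPKM under oil, with overlap. The part of these cells in the Kcnc1 value was not tested.

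Of the Kv1 genes and their beta subunits 5 of 9 were tested, 4 higher and 1 lower in DHT libraries (3 and 2 after centring). Kcnab2, a cytoplasmic beta subunit that binds Kv1 pores, was the most expressed gene of the family. It had 60.2, 69.1 and 51.3 FPKM under DHT, against 46.8, 54.9 and 52.5 FPKM under oil, so the groups overlapped (log2 fold change 0.22, SE 0.13). The related beta subunit Kcnab3 was lower in level but its groups were apart, at 8.56, 7.76 and 7.67 FPKM under DHT, against 7.14, 6.37 and 6.98 FPKM under oil (log2 fold change 0.21, SE 0.10, limma adjusted p = 0.664). Kcna2, the Kv1 pore gene with the highest listed value, averaged 20.9 ± 3.16 FPKM under DHT, against 20.6 ± 3.18 FPKM under oil, and Kcnab1 averaged 14.0 ± 2.32 and 14.5 ± 0.910 FPKM (DHT and oil, SD, n = 3 each). Kcna6 was the least steady of the tested genes described, with 9.05, 0.231 and 0.113 FPKM under DHT, against 1.08, 0.0714 and 0.455 FPKM under oil, and its mean rests on DHT library 1. Kcna1, Kcna5 and Kcna7 were listed at 0 in every library, and Kcna10 at 0 in 5. Kcna1 is known as a widespread neuronal subunit, and an exact 0 in such files can be a failed estimate.

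Of the Kv2 and silent subunit genes 9 of 12 were tested, 7 higher and 2 lower in DHT libraries, with and without centring. Silent subunits make no channel alone and modify Kv2 pores. One of them, Kcng1, had 3.87, 3.48 and 4.10 FPKM under DHT, against 2.88, 3.23 and 3.10 FPKM under oil. The groups were apart, with a log2 fold change of 0.27 (SE 0.11, unadjusted p = 0.0419 and adjusted p = 0.659 by limma). Kcnv1 had 8.93, 8.13 and 6.94 FPKM under DHT, against 7.25, 8.28 and 3.25 FPKM under oil, where 1 low oil library set most of the difference. Kcnb2, a Kv2 pore gene, averaged 2.71 ± 1.08 FPKM under DHT, against 3.30 ± 0.517 FPKM under oil (SD, n = 3 each), with overlap. Kcns2, Kcns1, Kcns3, Kcng4 and Kcng2 had means from 0.568 to 2.65 FPKM and all overlapped. Kcng3 and Kcnv2 were under 0.5 FPKM, and Kcnf1 was listed at 0.

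The Kv4 pores and their KChIP partners, calcium-binding proteins that bring them to the surface, were the role with the lowest median after the fit: 3 of 6 were higher and 3 lower in DHT libraries, the median log2 fold change being -0.005, and 1 and 5 after centring. Kcnip4 had 6.88, 6.90 and 4.58 FPKM under DHT, against 11.5, 9.48 and 6.56 FPKM under oil. The means were 6.12 ± 1.34 and 9.18 ± 2.48 FPKM (DHT and oil, SD, n = 3 each) and the groups overlapped by 1 library (log2 fold change -0.54, SE 0.24, limma adjusted p = 0.659). This difference rests on first-exon events, since the last-exon events were at 0 in all libraries but DHT library 3 (3.20 FPKM) and gave 0.96 instead. The leading first exon of Kcnip4 did not share it, at 6.69, 5.83 and 2.80 FPKM under DHT, against 5.06, 6.84 and 2.86 FPKM under oil. That exon held 81.0 ± 18.2% of the first-exon FPKM under DHT, against 53.3 ± 16.4% under oil (SD, n = 3 each). The lower gene value thus lay in the other first exons. Kcnd3, the Kv4 pore common in interneurons, had 2.08, 4.65 and 2.19 FPKM under DHT, against 4.64, 3.73 and 4.36 FPKM under oil. Here 2 DHT libraries lay below all oil libraries and 1 stood level with the highest of them (log2 fold change -0.52, SE 0.27, limma adjusted p = 0.681). The value comes from first-exon events, since the last-exon event was at 0 in every library. Another measure did not point the same way: the forms with and without a 57-base cassette exon summed to 8.01, 6.81 and 8.59 FPKM under DHT, against 6.74, 7.95 and 5.85 FPKM under oil, with overlap. The form without the exon alone, at 1.91, 4.26 and 2.00 FPKM under DHT, against 4.39, 3.41 and 4.10 FPKM under oil, had nearly the gene's values. The dendritic pore Kcnd2 averaged 12.8 ± 0.978 FPKM under DHT, against 13.1 ± 1.53 FPKM under oil, and Kcnip2 16.9 ± 1.69 and 16.2 ± 1.82 FPKM (DHT and oil, SD, n = 3 each). Kcnip1 averaged 5.44 ± 0.326 and 5.40 ± 0.519 FPKM, and Kcnd1 1.06 ± 0.0520 and 0.874 ± 0.281 FPKM (DHT and oil, SD, n = 3 each).

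The Kv7 genes were evenly divided, with 2 of 4 tested higher and 2 lower, also after centring. Kcnq3, a subunit of M-current channels, was among the steadiest members, at 10.4 ± 0.832 FPKM under DHT, against 10.4 ± 0.330 FPKM under oil, and Kcnq5 averaged 9.08 ± 0.657 and 8.76 ± 2.12 FPKM (DHT and oil, SD, n = 3 each). The cardiac and epithelial gene Kcnq1 and its partner Kcne1 were listed at 0, and Kcne2, Kcne3 and Kcne4 were under 0.5 FPKM.

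All 6 tested Kcnh genes (the EAG, ERG and ELK channels) were higher in DHT libraries, 5 of 6 after centring, and none passed. Kcnh1, the founding EAG channel, had 9.97, 9.62 and 8.61 FPKM under DHT, against 8.62, 7.86 and 8.17 FPKM under oil, overlapping narrowly (log2 fold change 0.18, SE 0.10). Its last-exon events gave -0.25, so the direction depended on the event used, but they averaged only 1.21 FPKM against 8.81 FPKM for first-exon events. Kcnh3, an ELK channel of the forebrain, had 12.1, 10.4 and 8.14 FPKM under DHT, against 8.48, 4.91 and 9.69 FPKM under oil (log2 fold change 0.42, SE 0.26). Kcnh7, an ERG channel, averaged 11.7 ± 2.76 FPKM under DHT, against 10.4 ± 1.89 FPKM under oil, and Kcnh5 8.53 ± 0.724 and 8.43 ± 0.637 FPKM (DHT and oil, SD, n = 3 each). Kcnh2 and Kcnh4 had means of 4.07 and 3.11 FPKM with overlap, and Kcnh6 and Kcnh8 were under 0.5 FPKM.

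Among genes placed by symbol with the calcium- and sodium-activated channels 5 of 8 were higher and 3 lower, or 4 and 4 after centring. Kcnma1 encodes the large-conductance calcium-activated (BK) pore, and had 21.5, 12.3 and 11.7 FPKM under DHT, against 18.1, 13.7 and 22.8 FPKM under oil (log2 fold change -0.28, SE 0.28). Its brain beta subunit Kcnmb4 pointed the other way, at 10.5, 8.65 and 9.94 FPKM under DHT, against 8.93, 7.14 and 8.71 FPKM under oil (log2 fold change 0.22, SE 0.13). In both genes the groups overlapped. Kcnn1, a small-conductance channel of the afterhyperpolarization, had 2.61, 1.33 and 1.04 FPKM under DHT, against 0.9997, 0.931 and 0.953 FPKM under oil. These were apart (log2 fold change 0.50, SE 0.26), but without DHT library 1 the value was 0.20 and with first-exon events alone it was -0.01. The other small-conductance genes overlapped, Kcnn2 at 6.83 ± 1.07 and 6.05 ± 0.919 FPKM and Kcnn3 at 3.19 ± 0.482 and 3.503 ± 1.003 FPKM (DHT and oil, SD, n = 3 each). The sodium-activated channel genes Kcnt1 and Kcnt2 averaged 11.6 ± 2.36 and 4.26 ± 0.301 FPKM under DHT, against 11.5 ± 1.88 and 3.76 ± 0.489 FPKM under oil (SD, n = 3 each). Kcnu1, known from sperm and placed in this role by symbol alone, was at 0.557 FPKM and was among the 3 lower. Kcnmb1, Kcnmb2 and Kcnn4 were under 0.5 FPKM and Kcnmb3 was listed at 0.

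Of the inward rectifier genes 8 of 15 were tested, 7 higher and 1 lower, or 5 and 3 after centring. Kcnj3, Kcnj6 and Kcnj9 encode the G-protein-gated channels of neurons. Kcnj3 had 8.60, 22.5 and 20.8 FPKM under DHT, against 16.9, 10.2 and 15.7 FPKM under oil, with the widest spread of the well-expressed rectifiers. Kcnj6 averaged 11.7 ± 3.42 FPKM under DHT, against 10.6 ± 1.45 FPKM under oil, and Kcnj9 10.9 ± 1.57 and 10.5 ± 1.09 FPKM (DHT and oil, SD, n = 3 each). Kcnj10 encodes the main rectifier of astrocytes and oligodendrocytes, and had 14.2, 15.8 and 15.2 FPKM under DHT, against 14.7, 13.2 and 11.8 FPKM under oil (log2 fold change 0.18, SE 0.11), while last-exon events gave -0.82. Those last-exon events were few, at 0, 1.94 and 0 FPKM under DHT, against 0, 1.56 and 2.78 FPKM under oil. All 6 astrocyte markers were over 5 FPKM and summed to 241 to 270 FPKM under DHT, against 250 to 261 FPKM under oil. All 5 oligodendrocyte markers were over 5 FPKM too and summed to 363 to 440 FPKM under DHT, against 307 to 376 FPKM under oil; their part in the Kcnj10 value was not tested. Kcnj16, its glial partner, averaged 2.44 ± 0.0351 and 2.48 ± 0.286 FPKM (DHT and oil, SD, n = 3 each). Kcnj12, Kcnj2 and Kcnj8 overlapped with means from 0.627 to 2.55 FPKM. Kcnj4 was listed at 1.90 FPKM in DHT library 2 and at 0 elsewhere, Kcnj5, Kcnj13 and Kcnj14 were under 0.5 FPKM, and Kcnj1, Kcnj11 and Kcnj15 were listed at 0.

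The K2P genes, which carry background potassium current, held 4 of the 8 members whose groups were apart. Over all genes tested 15.1% did not overlap (12% higher and 3.15% lower), and whether the count in this role is unusual was not tested. Of 8 tested 6 were higher and 2 lower, with and without centring. Kcnk1 had 10.9, 10.4 and 10.1 FPKM under DHT, against 9.49, 8.92 and 9.49 FPKM under oil (log2 fold change 0.16, SE 0.09, limma adjusted p = 0.698). Kcnk6 had 0.725, 0.806 and 0.564 FPKM under DHT, against 0.440, 0.406 and 0.466 FPKM under oil (log2 fold change 0.35, SE 0.15, limma adjusted p = 0.659). Kcnk10, a mechanically and lipid-gated channel, had 0.750, 0.897 and 0.747 FPKM under DHT, against 0.550, 0.615 and 0.491 FPKM under oil (log2 fold change 0.30, SE 0.14, limma adjusted p = 0.662). The last-exon events of Kcnk10 alone overlapped, at 0.750, 0.440 and 0.747 FPKM under DHT, against 0.550, 0.615 and 0.491 FPKM under oil. Kcnk6 and Kcnk10 lay near the limit of 0.5 FPKM, where the added 0.5 FPKM shrinks a log2 fold change: the means were 0.698 ± 0.123 and 0.437 ± 0.0303 FPKM for Kcnk6, and 0.798 ± 0.0857 and 0.552 ± 0.0622 FPKM for Kcnk10 (DHT and oil, SD, n = 3 each). Kcnk2, a close relative of Kcnk10 at a higher level, overlapped at 10.9, 7.17 and 8.48 FPKM under DHT, against 7.86, 4.39 and 7.01 FPKM under oil (log2 fold change 0.45, SE 0.24). Kcnk13, known in the brain as the resting channel of microglia, was the member that was lower without overlap, at 0.781, 0.916 and 0.827 FPKM under DHT, against 1.30, 1.09 and 1.11 FPKM under oil (log2 fold change -0.31, SE 0.13, unadjusted p = 0.0510 and adjusted p = 0.659 by limma). Last-exon events of Kcnk13 alone overlapped, at 0.656, 0.559 and 0.827 FPKM under DHT, against 0.793, 1.09 and 0.314 FPKM under oil. The 5 microglial markers summed to 24.7 to 36.8 FPKM under DHT, against 21.7 to 36.5 FPKM under oil, with 2 of 5 over 5 FPKM and the 3 tested all slightly higher in DHT libraries. Kcnk9 and Kcnk3, the acid-sensitive channels, averaged 3.19 ± 1.11 and 3.44 ± 0.0897 FPKM under DHT, against 3.35 ± 0.800 and 2.89 ± 0.593 FPKM under oil (SD, n = 3 each). Kcnk4 averaged 2.30 FPKM, Kcnk5 and Kcnk15 were under 0.5 FPKM, and Kcnk7, Kcnk12, Kcnk16 and Kcnk18 were listed at 0.

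Genes outside the family that bind, place or modulate these channels were given the same test. Of 28 such partners 22 were tested, 17 higher and 5 lower in DHT libraries, a median log2 fold change of 0.11, and 0 passing an adjusted p of 0.05 (4 at an unadjusted p under 0.05). Over all genes tested 63.6% were higher and 7.34% had an unadjusted p under 0.05. Their sum was 362 to 379 FPKM under DHT, against 308 to 330 FPKM under oil, with no overlap. Of all single genes 15.1% did not overlap, but a sum over many genes is not a like measure. Pex5l, the auxiliary subunit of HCN pacemaker channels, had 52.0, 46.9 and 34.0 FPKM under DHT, against 34.0, 10.9 and 24.7 FPKM under oil (limma adjusted p = 0.659). Cntn2, an adhesion protein that gathers Kv1 channels beside the node of Ranvier, had 12.7, 12.2 and 12.3 FPKM under DHT, against 10.5, 10.3 and 9.81 FPKM under oil (limma adjusted p = 0.656). Amigo1, an auxiliary subunit of Kv2 channels, had 9.004, 10.4 and 9.12 FPKM under DHT, against 6.48, 5.001 and 8.89 FPKM under oil (limma adjusted p = 0.659). Lingo1, a neuronal membrane protein, had 13.1, 11.6 and 12.4 FPKM under DHT, against 10.6, 8.57 and 8.59 FPKM under oil (limma adjusted p = 0.652). The groups were apart for Cntn2, Amigo1 and Lingo1 and met at their edges for Pex5l. Of 9 sodium channel genes tested, 5 were higher and 4 lower, the median log2 fold change being 0.05, and 0 passing (1 at an unadjusted p under 0.05), beside the same shares over all genes.

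Circular RNAs came from 23 potassium channel genes, and 67 of the 89 listed genes had none; Kcnip3 had circles, and its gene value was not analysed here. The circles gave 3066 junction reads in all, 92 being exonic and 11 intronic. Each library listed few of them, 52, 41 and 46 under DHT, against 56, 36 and 36 under oil, and only 15 circles were listed in all 6 while 42 were listed in 1. A circle is listed only from 2 reads, so one not listed counts as 0 here. Per M junction reads of the library, the family took 12960, 9114 and 10135 under DHT, against 11553, 9257 and 10855 under oil. The means of 10736 ± 1992 and 10555 ± 1177 (DHT and oil, SD, n = 3 each) did not differ beyond that spread.

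The circles were concentrated in a few genes, and 3 circles held 50.3% of the reads. Kcnt2 alone gave 17 circles with 1278 reads (41.7%), although its gene value was 4.01 FPKM, while Kcnab2, at 55.8 FPKM, had no circle listed. Of the Kcnt2 reads 94.9% came from 7 circles that share 1 start on chromosome 1 (140362949) and end at different downstream positions. The Kcnh genes gave 37 circles from 4 hosts with 621 reads. The single Kcnj6 circle (chromosome 16, 94832299 to 94833219) was the most read of the family, with 139, 53 and 103 junction reads under DHT, against 84, 94 and 60 under oil. After scaling by TMM this was 1974 ± 801 and 1726 ± 314 per M junction reads (DHT and oil, SD, n = 3 each), with overlap (log2 fold change 0.19, SE 0.29). The 20.1-kb Kcnt2 circle (140362949 to 140383095) had 104, 89 and 65 reads under DHT, against 85, 98 and 79 under oil. The 87.4-kb Kcnt2 circle (140362949 to 140450304) had 140, 58 and 58 reads under DHT, against 88, 43 and 101 under oil, so libraries within each group differed by more than the groups did.

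**Figure D3:**
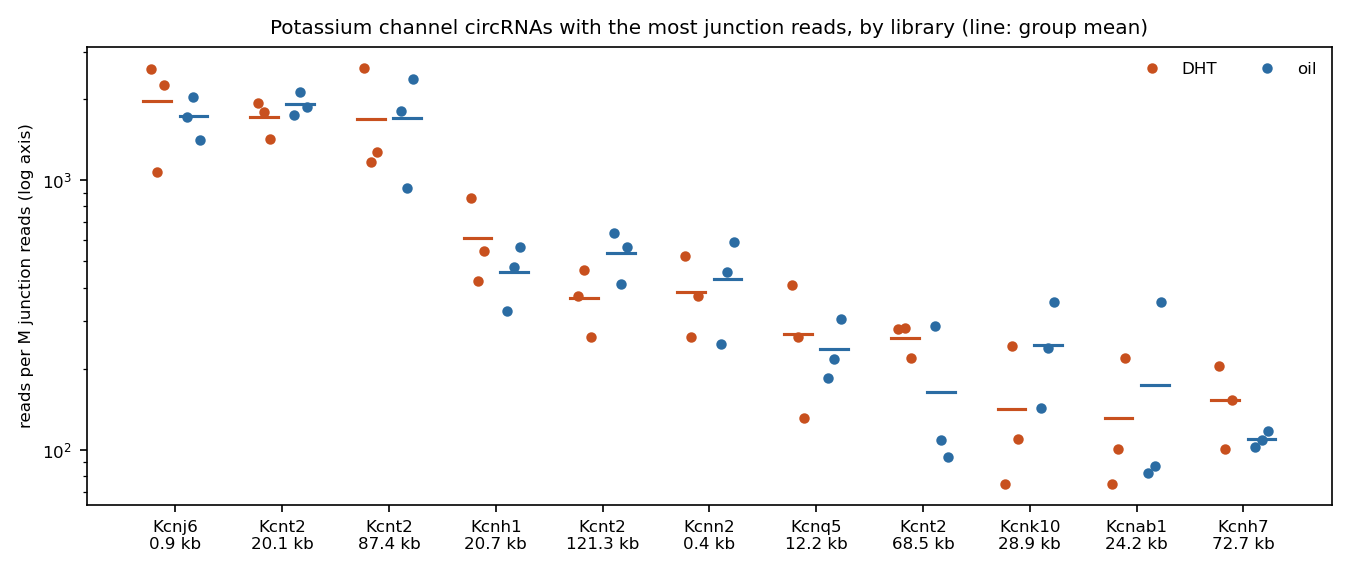
Junction reads per M, on a log axis and scaled by TMM, for 11 of the 12 potassium channel circles with the most reads, with each library as a point and the group mean as a line, DHT left of oil. Each circle is named by its host gene and the genomic distance between its ends, and in all 11 the groups overlap.

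No potassium channel circle passed the test between the groups. Of 25 circles with at least 20 reads, from 13 hosts, 0 had an adjusted p under 0.05 by edgeR (0.0% of all 2524 circles did) and 0 by DESeq2, and 0 had an unadjusted p under 0.05 by either tool, where edgeR gave 3.13% of all circles. In none were the groups apart, against 11.1% of all circles. The level was higher in DHT libraries in 15 and lower in 10, where 50.4% of all circles were higher, and the median log2 fold change was 0.19 against 0.01. The circle with the smallest p was the 121.3-kb Kcnt2 circle (140362949 to 140484233). It had 20, 23 and 12 reads under DHT, against 31, 19 and 24 under oil, or 367 ± 100.6 and 538 ± 114 per M (DHT and oil, SD, n = 3 each), with a log2 fold change of -0.55 (SE 0.34, unadjusted p = 0.128 by edgeR). The 68.5-kb circle from the same start had the opposite sign, at 15, 14 and 10 reads under DHT, against 14, 5 and 4 under oil (log2 fold change 0.65, SE 0.52). The Kcnh1 circle of 20.7 kb (chromosome 1, 192221333 to 192242037) had 46, 21 and 25 reads under DHT, against 16, 22 and 24 under oil (log2 fold change 0.43, SE 0.34). The Kcnk10 circle of 28.9 kb (chromosome 12, 98489905 to 98518832) had 4, 12 and 5 reads under DHT, against 7, 11 and 15 under oil (log2 fold change -0.77, SE 0.57). With reads this few, counting error alone is large.

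The lists also give linear reads at each circle, so the share of reads that were circular could be set side by side for the 15 circles listed in all libraries. The median share was 3.84%, against 5.04% over all 1581 such circles. In the 20.1-kb Kcnt2 circle it was 32.2 ± 4.72% under DHT, against 34.1 ± 2.12% under oil, and in the Kcnj6 circle 26.4 ± 8.67% and 26.4 ± 5.64% (DHT and oil, SD, n = 3 each). Kcnk10 combined a low gene value of 0.675 FPKM with a circular share of 34.1 ± 26.0% under DHT, against 39.4 ± 6.06% under oil, on 54 junction and 97 linear reads in all. For the share, 0 of 15 passed an adjusted p of 0.05 by limma (0.0% of all did) and 0 an unadjusted p of 0.05 (5.31% of all did). For linear reads alone, 0 of 15 passed an adjusted p of 0.05 by edgeR (0.886% of all did) and 1 had an unadjusted p under 0.05 (11.8% of all did), with 9 of 15 higher and 6 lower (49.3% of all were higher).

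**Figure D4:**
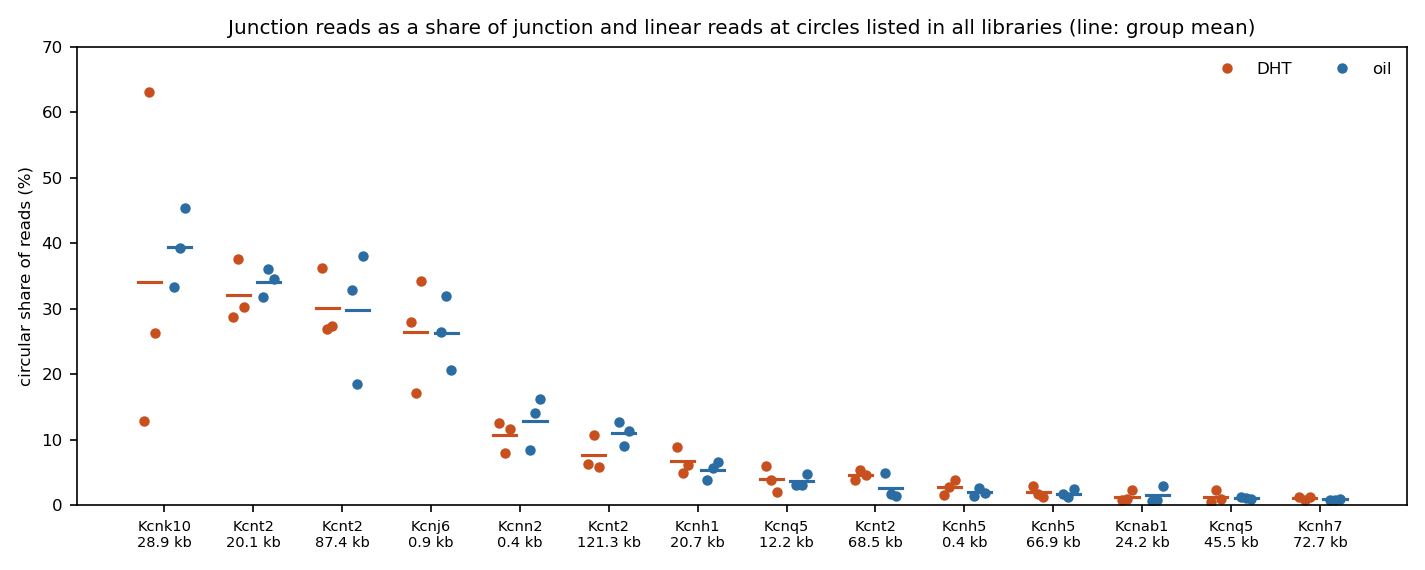
Circular share of reads, as junction reads over junction plus linear reads in percent, for 14 of the 15 potassium channel circles listed in all 6 libraries, with each library as a point and the group mean as a line, DHT left of oil. The Kcnk10, Kcnj6 and the 20.1-kb and 87.4-kb Kcnt2 circles average 26% or more, and the others plotted lie lower.

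On the genome, introns included, the ends of the circles lay a median of 17830 bases apart (from 162 to 189143), against 13650 over all circles. Of the 92 exonic circles 46 had an end on a junction of the deposited splicing events, where 54.2% of all exonic circles did. All Kcnq5 circles but 1 had their lower coordinate at 21457404 or 21424049 on chromosome 1. The exception ran from 21535061 to 21593614, with 6 reads in oil library 1 alone. Since the gene is on the minus strand, 21457404 and 21424049 are the last bases, in transcript order, of a pair of exons that the splicing events list as skipped together.

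Splice forms were compared as pairs, one with and one without an exon or intron. Of 343 pairs in 48 potassium channel genes, 117 pairs in 25 genes had a mean of at least 2 FPKM over both forms. None passed an adjusted p of 0.05 by limma (0 of 117, where 0.0139% of all pairs did), and 7 (5.98%), in 5 genes, had an unadjusted p under 0.05, where 4.99% of all pairs did. That count was 14 without DHT library 2. In 33 pairs of 14 genes both forms reached at least 0.5 FPKM, so most tested pairs had 1 dominant form. The depth behind these FPKM is unknown, and neighbouring pairs share exons and libraries.

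The pair with the smallest p, in Kcnq5, concerned 2 neighbouring exons (21424049 to 21457624 on chromosome 1), included together in 99.5 ± 0.371% of the FPKM under DHT, against 95.3 ± 1.57% under oil (SD, n = 3 each). The included form was higher, and the skipped form stood at 0.0451 ± 0.0325 FPKM under DHT, against 0.325 ± 0.118 FPKM under oil (unadjusted p = 0.00439 and adjusted p = 0.717 by limma). Pairs in Kcnj3, Kcnd3 and Kcnab2 also had an unadjusted p under 0.05 by limma, and each had 1 form near 0 in most libraries. In Kcnab2 inclusion was 99.90 ± 0.0500% under DHT, against 99.89 ± 0.0423% under oil (SD, n = 3 each). With 0.5 FPKM added, its ratio mostly followed the level of the included form. That level was 60.1 ± 8.84 FPKM under DHT, against 51.3 ± 4.13 FPKM under oil (SD, n = 3 each). In Kcnj3 a retained-intron form, which both of its pairs share, had 2.62, 2.20 and 0 FPKM under DHT, against 2.55, 9.72 and 7.36 FPKM under oil, while the spliced form was above 0 in DHT library 1 alone. In DHT library 3 both forms were at 0, so the added 0.5 FPKM alone set the ratio there.

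**Figure D5:**
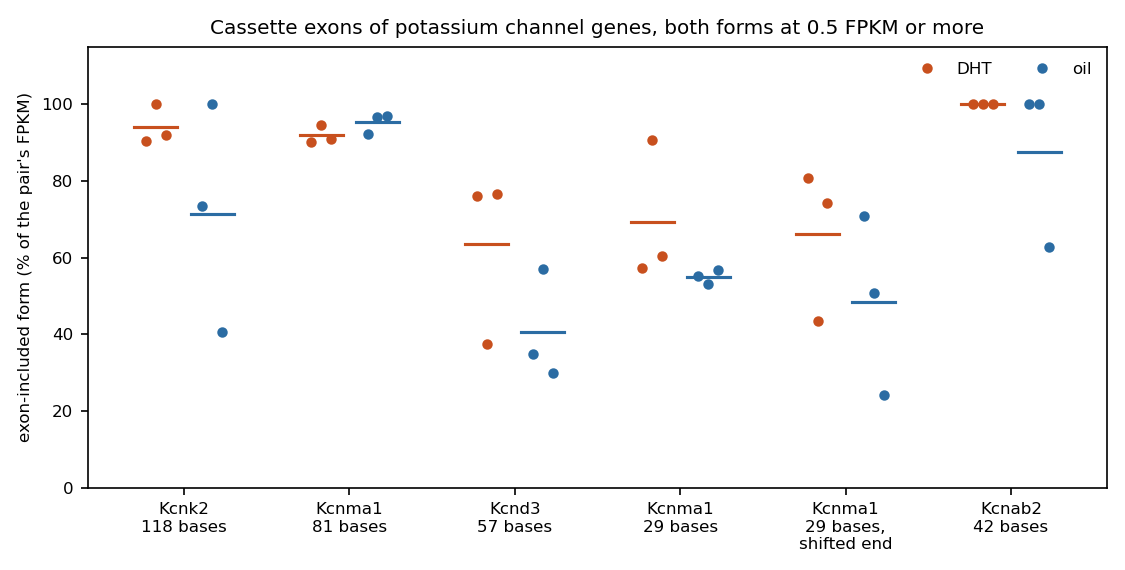
The exon-included form as a percent of the FPKM of both forms, for 6 cassette exon pairs of potassium channel genes with both forms at 0.5 FPKM or more, with each library as a point and the group mean as a line, DHT left of oil. The 57-base exon of Kcnd3 averages 63.5% under DHT, against 40.6% under oil, with 1 DHT library among the oil libraries.

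Other exons of the family were also split between forms. A 57-base exon of Kcnd3 (chromosome 3, 105666962 to 105667018) was included in 76.2%, 37.5% and 76.8% under DHT, against 34.9%, 57.1% and 29.9% under oil, with overlap. A 118-base exon of Kcnk2 (chromosome 1, 189295594 to 189295711) was included in 94.2 ± 5.08% under DHT, against 71.4 ± 29.7% under oil. A 29-base exon of Kcnma1 was included in 57.3%, 90.6% and 60.4% under DHT, against 55.3%, 53.2% and 56.8% under oil in one pair, narrowly apart, while in a pair with a shifted edge it was at 66.2 ± 19.9% and 48.6 ± 23.4% (DHT and oil, SD, n = 3 each), with overlap. In the same gene an 81-base exon was included in 91.9 ± 2.34% and 95.3 ± 2.67%, and a 12-base exon in 83.0 ± 3.40% and 85.1 ± 13.8%. A 33-base exon of Kcnip1 was at 36.9 ± 3.19% and 31.4 ± 4.13% (DHT and oil, SD, n = 3 each). None of these had an unadjusted p under 0.05 by limma.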

How the data were processed

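Hippocampal RNA, by its label, was sequenced from 3 DHT and 3 oil libraries, grouped by treatment label, and the labels give no batch or pairing. FPKM values were deposited by the authors per first-exon, last-exon or splicing event, not per gene, and counts of junction reads and of linear reads per circRNA were deposited too, per the file headers. The deposited score per circRNA, rounded down by the authors per the labels' protocols, served only to recover mapped reads. HISAT2 2.0.1, BWA, cutadapt and bcl2fastq 2.17.1.14 are named in the submitters' processing notes, with no roles. Neither the circRNA caller nor the FPKM tool is given in the sources used here. The notes name mm9, but all 103 circles lay inside their hosts' GRCm38 bounds, so coordinates are treated as GRCm38. Strand use in counting is not given, so overlapping, antisense and near-identical genes cannot be told apart. Of 32348 gene identifiers 32237 matched a symbol.

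Gene values are the larger of first-exon and last-exon sums per locus, added over loci of a symbol. Those averaging 0.5 FPKM or more entered limma 3.58.1 (trend, R 4.3.3) as log2(FPKM + 0.5), a scale that understates changes of low genes. For circles of 20 or more reads the quasi-likelihood test of edgeR 4.0.16 (TMM) and, as an alternative, DESeq2 1.42.0 were used, for linear reads edgeR, and for the junction to linear ratio (0.5 added to both) and splice form ratios (0.5 FPKM added to both) limma. Each fit covered the whole table, with Benjamini-Hochberg adjustment and a threshold of 0.05. Members, lists and tests were chosen with earlier results of these data known. Named are the 10 genes with the smallest p in each direction, the 3 most expressed per role, the 12 circles with most reads, the 5 circles and 5 pairs with the smallest p in each direction, and other members, chosen after their values were seen. Some members count in the totals, but their own values are not reported here.

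On simulated data, limma recovered 15 of 67, 38 of 67 and 55 of 66 genes changed by 1.5, 2 and 3-fold among 11369, with 6 false calls. edgeR recovered 0 of 67, 0 of 67 and 2 of 66 circles among 2524, and 61 of 67, 66 of 67 and 66 of 66 linear loci among 1581, with 11 false calls. Both sets of counts were simulated with the same spread (dispersion) for all features, so recovery in the real data may differ. For circular shares limma recovered 0, 0 and 21, and for splice pairs none at any of these sizes.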

Additional observations from a re-analysis of the deposited data

How the results depend on the processing

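Under every alternative tried, leaving out each library included, 0 potassium channel genes, circles, linear loci, circular shares and splice pairs passed an adjusted p of 0.05. Tested genes higher in DHT libraries numbered 34 of 45 at a minimum of 2 FPKM, 33 of 40 with last-exon sums, 40 of 56 with first-exon sums and 55 of 75 without a filter, and 39 to 45 on leaving out 1 library. Unadjusted p under 0.05 held for 1 to 6 genes, 0 to 1 circles, 1 to 2 linear loci, 0 to 1 shares and 5 to 14 pairs on leaving out 1 library, and for 2 pairs at a minimum of 10 FPKM. Over all genes, 0 to 4 had an adjusted p under 0.05 on leaving out 1 library, 1 with a pseudocount of 0.1 FPKM or a minimum of 2 FPKM, and 0 with first-exon or last-exon sums alone. No paired analysis was possible because the labels give no replicate numbers shared between the groups.

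The direction (log2 fold change) turned round, with the cause not tested, in these results, none of which had passed. Centred libraries gave -0.039 for Kcna2, -0.019 for Kcnc2, -0.0016 for Kcnip2 and -0.047 for Kcnt1. First-exon sums gave -0.0057 for Kcnn1 and -0.17 for Kcnt1. Last-exon sums gave -0.25 for Kcnh1, 0.96 for Kcnip4, 0.086 for Kcnd2 and -0.82 for Kcnj10. The 87.4-kb Kcnt2 circle stood at 0.015 with DESeq2, 0.0011 from 60 reads and 0.029 without a filter. On leaving out 1 library the gene values ran from -0.27 to 0.089 (Kcnn3), -0.18 to 0.049 (Kcnab1), -0.12 to 0.044 (Kcnd2), -0.081 to 0.14 (Kcnc2), -0.054 to 0.056 (Kcnq3), -0.017 to 0.31 (Kcnh7), -0.10 to 0.31 (Kcnj6), -0.32 to 0.092 (Kcnu1), -0.092 to 0.14 (Kcna2), -0.14 to 0.10 (Kcnt1), -0.057 to 0.61 (Kcnj3), -0.26 to 0.19 (Kcnk9), -0.031 to 0.14 (Kcnip2) and -0.073 to 0.24 (Kcnq5). Circle levels ran from -0.060 to 0.49 (Kcnj6), -0.24 to 0.53 (Kcnq5), -0.48 to 0.30 (Kcnt2, 87.4 kb), -0.43 to 0.15 (Kcnn2) and -0.94 to 0.61 (Kcnab1). Linear reads ran from -0.031 to 0.24 (Kcnt2, 121.3 kb), -0.17 to 0.20 (20.1 kb), -0.18 to 0.10 (87.4 kb) and -0.63 to 0.26 (Kcnk10). Log2 circular to linear ratios ran from -1.40 to 0.27 (Kcnk10), -0.55 to 0.55 (Kcnab1), -0.35 to 0.36 (Kcnt2, 87.4 kb), -0.32 to 0.45 (Kcnq5) and -0.32 to 0.35 (Kcnj6).

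Of the 103 circles 78 had fewer than 20 reads and were not tested. Intervals of counting are not given for FPKM, whose read depth per gene is unknown.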
